A study of Rattus norvegicus with 12 samples.

Results

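The Wnt genes described here are the secreted Wnt ligands, the Frizzled (Fzd) receptors with the co-receptors Lrp5 and Lrp6, the secreted Sfrp and Dkk inhibitors, the R-spondins (Rspo) with the receptors Lgr4, Lgr5 and Lgr6, and Axin2. They were chosen by symbol from a table of read counts with 30045 gene symbols. A gene was kept when its counts summed to at least 20 over the 12 libraries. Of 47 symbols that matched, 42 were kept. These were 14 ligands, 12 receptors and co-receptors, 8 inhibitors, 7 R-spondins and Lgr receptors, and Axin2. Wnt7b with 28 counts and Rspo3 with 29 counts stood just above the minimum. Wnt7a and Wnt8a with 10 counts each stood just below it, followed by Wnt1 and Wnt8b with 8 each and Wnt3a with 7.

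The cultures held theca-interstitial cells, which surround the ovarian follicle and make androgens. They came from wild type Sprague Dawley rats, all female, at postnatal day 30, and were kept on plates coated with human fibronectin in McCoy's 5A medium. The cells received rat interleukin-1β (IL-1β), lipopolysaccharide (LPS, a component of bacterial cell walls) at 1 µg/ml, or vehicle as the control, and RNA was taken after 48 h. Each group held 4 libraries. The dose of IL-1β, the number of animals behind the cultures and the source of each replicate are not given in the labels, so the p-values speak to the spread between these libraries, which may be technical.

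Wnt proteins bind Frizzled receptors on the cell surface. With Lrp5 or Lrp6 this frees β-catenin from a destruction complex built on Axin, and β-catenin then acts with TCF/LEF proteins on target genes. Other Wnts act through Frizzled and partners such as Ror2 without β-catenin. Sfrp proteins bind Wnts outside the cell, most Dkk proteins block Lrp5 and Lrp6, and R-spondins acting through Lgr receptors keep Frizzled at the surface. In the mouse, Wnt4 and Rspo1 are needed for normal ovarian development.

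Total counts per library lay between 23193408 and 26836323 with IL-1β, between 25643226 and 28698783 with LPS and between 20873934 and 32090924 in controls. The Wnt genes held 0.132% to 0.136% of counts with IL-1β, 0.121% to 0.128% with LPS and 0.12% to 0.123% in controls. Markers of theca-interstitial cells all had counts in every group. So did the markers of every other cell type examined, so the presence of counts cannot check the label of the cultures. The steroid enzyme Cyp17a1, which defines androgen-producing theca, averaged 15.5 ± 2.59 CPM with IL-1β, 3.39 ± 1.37 CPM with LPS and 0.537 ± 0.101 CPM in controls (SD, n = 4 each). CPM is a count divided by the scaled total of its library. The RNA also held markers of other ovarian cells. Inha, an inhibin subunit made by granulosa cells, averaged 536 ± 66.3 CPM with IL-1β, 369 ± 49.7 CPM with LPS and 280 ± 19.3 CPM in controls. The oocyte coat gene Zp2 averaged 51.2 ± 5.56 CPM with IL-1β, 53.3 ± 13 CPM with LPS and 75.6 ± 1.35 CPM in controls. In bulk RNA, fewer cells of a type and less RNA per cell cannot be told apart.

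Wnt4, Wnt9a, Wnt6, Fzd1, Sfrp2 and Axin2 were higher in both treatments, and Dkk3 was lower in both. Among the 33 genes tested, 16 were higher and 4 were lower with IL-1β than in controls at an adjusted p under 0.05, or 60.6%, beside 47.7% of all 17330 genes tested (24.7% higher, 23.0% lower). With LPS, 12 were higher and 6 were lower, or 54.5%, beside 42.5% of all genes (22.5% higher, 20.0% lower). Some genes passed the filter on low counts only through treated libraries, and had to be high there to be tested. Of the 28 Wnt genes that reached the filter level in all 4 controls, 13 were higher and 4 were lower with IL-1β (60.7%, beside 49.3% of the 16217 genes that did so), and 9 were higher and 6 were lower with LPS (53.6%, beside 44.1%). The median log2 fold change of the 33 genes was 0.22 with IL-1β and 0.07 with LPS, beside 0.01 for all genes in both comparisons. Over the 28 genes it was 0.15 and 0.06, beside 0.00 and 0.01 for all genes at that level. The counts of 1.5-fold changes and of overlap below include the genes that passed the filter through treated libraries. They are not support for a rise of the Wnt genes as a group. Changes of at least 1.5-fold were found in 13 of the 33 genes with IL-1β, beside 13.3% of all genes, and in 7 with LPS, beside 10.8%. Both treatments were set against the same 4 control libraries, so their values stand side by side below and are not independent. All 4 libraries of a group lay on one side of all 4 controls in 14 genes that were higher and 5 that were lower with IL-1β (57.6%, beside 44.2% of all genes), and in 12 higher and 4 lower with LPS (48.5%, beside 38.3%). The 4 lower genes with IL-1β became 2 without Control replicate 1 or 2, and the 6 lower genes with LPS became 3 without Control replicate 1. With libraries scaled by their totals alone, each became 2, and 89.5% of the calls with IL-1β and 87.5% of those with LPS were higher, against 80.0% and 66.7% with the main scaling. That scaling moved the split of all genes in the same way, to 64.1% higher with IL-1β and 63.4% with LPS, against 51.7% and 53.0%.

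**Figure D1:**
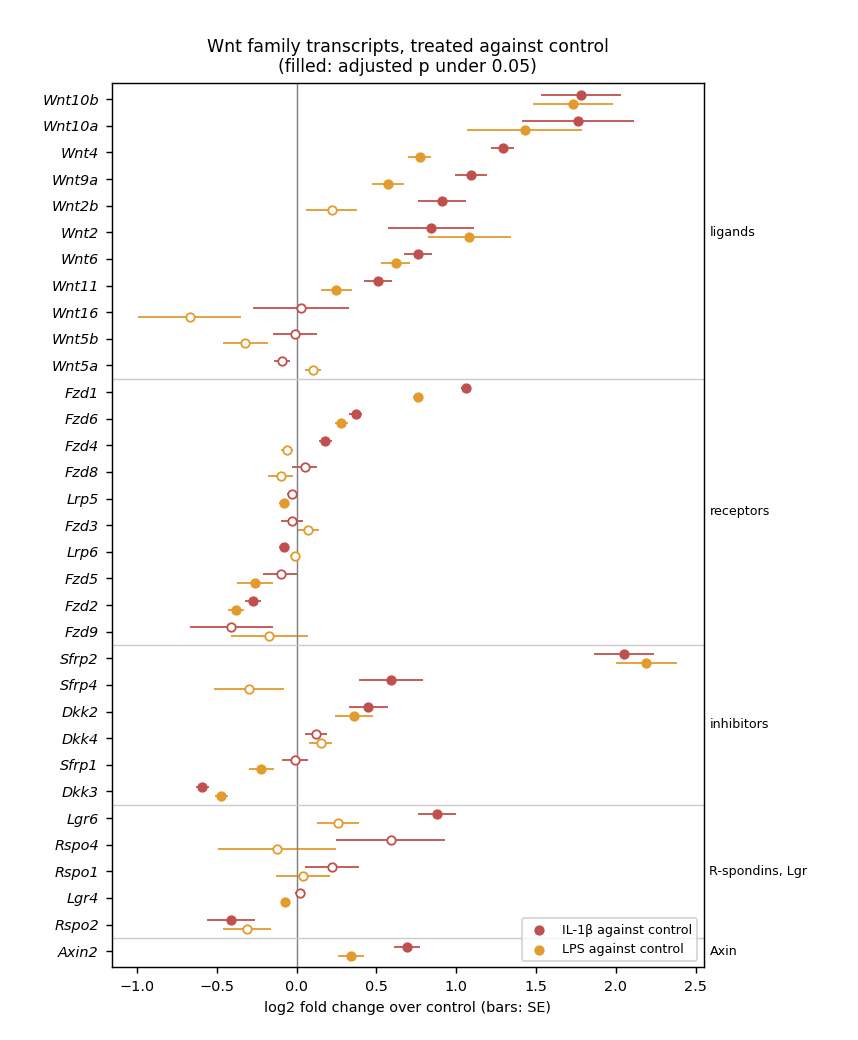
Log2 fold change over control (x axis, bars show SE) of the 33 Wnt genes tested, grouped by role down the page, for IL-1β (red) and LPS (orange) with 4 libraries per group; filled points passed an adjusted p under 0.05. Sfrp2 lies farthest to the right, at 2.05 with IL-1β and 2.19 with LPS, and Dkk3 has the lowest filled points, at -0.59 and -0.47.

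Of the 7 ligands that reached the filter level in all 4 controls, 5 were higher and none was lower with IL-1β. Among all genes at that level, 24.8% were higher and 24.4% lower. With LPS, 4 of these ligands were higher and none was lower, beside 23.0% higher and 21.2% lower. Their median log2 fold change was 0.76 with IL-1β and 0.25 with LPS, beside 0.00 and 0.01 for all genes at that level. The other 4 tested were Wnt2, Wnt10a, Wnt10b and Wnt16. Of these, Wnt2 and Wnt10b reached the level in 2 controls and Wnt10a in 0, beside 3 or 4 libraries of each treatment, so these 3 passed the filter through the treated groups and their calls are not support for a rise of ligands as a group. At an unadjusted p under 0.05 in edgeR, 0 of the 11 were lower with IL-1β and 2, Wnt5b and Wnt16, with LPS. DESeq2 also called 0 lower in both comparisons. Summed over all 14 ligands, levels were 123 CPM at the lowest, 127 at the median and 129 at the highest with IL-1β, 98.0, 105 and 113 CPM with LPS, and 73.5, 78.9 and 80.1 CPM in controls. Wnt4 held much of this sum. Over the other 13 ligands the sums were 62.7, 63.9 and 66.0 CPM with IL-1β, 59.3, 61.1 and 64.2 CPM with LPS, and 49.9, 52.5 and 54.0 CPM in controls, so the treatments overlapped each other and both lay above controls.

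Wnt4, needed for ovary formation in the mouse, stood at 3 separate levels in the 3 groups. Its libraries read 62.5, 66.3, 59.8 and 61.2 CPM with IL-1β, 49.9, 44.4, 41.6 and 38.5 CPM with LPS, and 25.9, 26.1, 27.0 and 23.6 CPM in controls. Every IL-1β library lay above every LPS library, and every LPS library above every control. The log2 fold change over control was 1.29 ± 0.07 (SE, adjusted p = 8.41e-12) with IL-1β and 0.77 ± 0.07 (adjusted p = 2.5e-08) with LPS, which is 2.44-fold and 1.70-fold.

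Wnt9a, another secreted ligand, showed the same order of groups. It had 6.68, 5.62, 6.55 and 6.84 CPM with IL-1β, 4.57, 4.30, 4.72 and 4.37 CPM with LPS, and 2.89, 3.01, 3.22 and 3.00 CPM in controls. None of the 3 groups overlapped another. Relative to control, it stood at a log2 fold change of 1.09 ± 0.10 (adjusted p = 3.88e-10) with IL-1β and 0.57 ± 0.10 (adjusted p = 5.26e-05) with LPS. In the RefSeq annotation, Wnt9a neighbours Wnt3a, which stayed under the count minimum. The 250 bases before its annotated start in RefSeq (build GRCr8) are shown because they are the richest in G and C of the windows printed, at 81.2%, and carry 5 GC boxes, GGGCGG on either strand, given in capitals.
Wnt9a chr10:44593441-44593690 (+ strand): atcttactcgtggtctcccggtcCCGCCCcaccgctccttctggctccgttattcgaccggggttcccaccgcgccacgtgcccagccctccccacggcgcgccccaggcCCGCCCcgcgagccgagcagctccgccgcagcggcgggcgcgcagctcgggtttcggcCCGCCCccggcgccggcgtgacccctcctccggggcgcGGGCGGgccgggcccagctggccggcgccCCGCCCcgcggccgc

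A GC box was present in the 250 bases before the start of 12 of the 26 Wnt genes that had a RefSeq window, beside 32.4% of all 27457 windows. Among the 11 genes given in full here, 8 had a window, and those of Wnt2b, Wnt4, Wnt6 and Wnt9a held a GC box. The NF-κB consensus, searched on both strands, stood in 3 of the 26 windows (Fzd5, Wnt10a and Wnt16), beside 6.41% of all windows, and in none of the 8. These are matches of letters in one window per gene.

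Wnt10b, which holds back fat cell formation in the mouse, had low counts and large relative differences. It had 1.57, 1.18, 2.05 and 1.80 CPM with IL-1β, 2.05, 1.61, 1.36 and 1.36 CPM with LPS, and 0.698, 0.507, 0.293 and 0.362 CPM in controls, where counts ran from 6 to 22 per library and 2 of 4 libraries reached the filter level. All treated libraries lay above all controls, and the treatments overlapped each other. On the log2 scale, the difference from control was 1.78 ± 0.25 (adjusted p = 8.74e-07) with IL-1β and 1.73 ± 0.25 (adjusted p = 1.63e-06) with LPS. In the RefSeq annotation, Wnt10b overlaps the tubulin gene Tuba1c, and whether reads were counted by strand is not stated. Tuba1c averaged 876 CPM with IL-1β, 907 CPM with LPS and 1032 CPM in controls, and was lower in both treatments. Whether reads of Tuba1c were counted for Wnt10b was not tested.

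Wnt6 and Wnt2b followed different patterns between the treatments. Wnt6 had 11.4, 10.2, 10.2 and 11.2 CPM with IL-1β, 10.2, 11, 8.46 and 9.27 CPM with LPS, and 5.62, 6.79, 6.54 and 6.49 CPM in controls. Both treated groups lay above all controls and overlapped each other, with log2 fold changes over control of 0.76 ± 0.09 (adjusted p = 3.2e-08) for IL-1β and 0.62 ± 0.09 (adjusted p = 1.34e-06) for LPS. Wnt2b had 3.19, 3.13, 2.67 and 4.19 CPM with IL-1β, 1.79, 2.10, 1.99 and 2.24 CPM with LPS, and 1.71, 1.87, 1.71 and 1.68 CPM in controls. Only the IL-1β libraries stood clear of the controls, at 0.91 ± 0.15 (adjusted p = 7.82e-06), while LPS and control libraries overlapped and the LPS difference of 0.22 ± 0.16 did not pass (adjusted p = 0.271).

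The remaining ligands had few counts or smaller differences. Wnt10a, the neighbour of Wnt6, averaged 0.762 ± 0.202 CPM with IL-1β, 0.607 ± 0.234 CPM with LPS and 0.231 ± 0.0775 CPM in controls (SD, n = 4), and was higher with IL-1β at 1.76 ± 0.35 (adjusted p = 0.000115) and with LPS at 1.43 ± 0.36 (adjusted p = 0.00179). No control library of Wnt10a reached the level the filter asks for, so it was tested only because of its treated libraries, and Wnt2 reached it in 2 controls. Wnt2 averaged 0.822 ± 0.183 CPM with IL-1β, 0.963 ± 0.117 CPM with LPS and 0.455 ± 0.169 CPM in controls, and was higher with IL-1β at 0.84 ± 0.27 (adjusted p = 0.0114) and with LPS at 1.08 ± 0.26 (adjusted p = 0.00113). Wnt11 was higher with IL-1β at 0.51 ± 0.09 (adjusted p = 5.94e-05) and with LPS at 0.25 ± 0.10 (adjusted p = 0.0353). The LPS call of Wnt11 was lost when Control replicate 3 or 4 or LPS replicate 1, 3 or 4 was left out, with adjusted p between 0.0505 and 0.14.

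Wnt5a, a ligand known for signalling without β-catenin, averaged 28.3 ± 0.475 CPM with IL-1β, 32.2 ± 1.15 CPM with LPS and 30.1 ± 1.49 CPM in controls. It passed against control in neither treatment, at -0.09 ± 0.05 (adjusted p = 0.129) with IL-1β and 0.10 ± 0.05 (adjusted p = 0.0894) with LPS. Without Control replicate 4 the IL-1β difference was -0.12 (adjusted p = 0.0461), and with library totals alone the LPS difference was 0.14 (adjusted p = 0.0182). Wnt5b and Wnt16 did not pass either, with LPS differences of -0.32 ± 0.14 (adjusted p = 0.0678) and -0.67 ± 0.32 (adjusted p = 0.0966). Wnt5b passed at -0.41 to -0.37 when Control replicate 1 or 3 or LPS replicate 1 was left out, and Wnt16 passed at -0.90 without Control replicate 4.

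**Figure D2:**
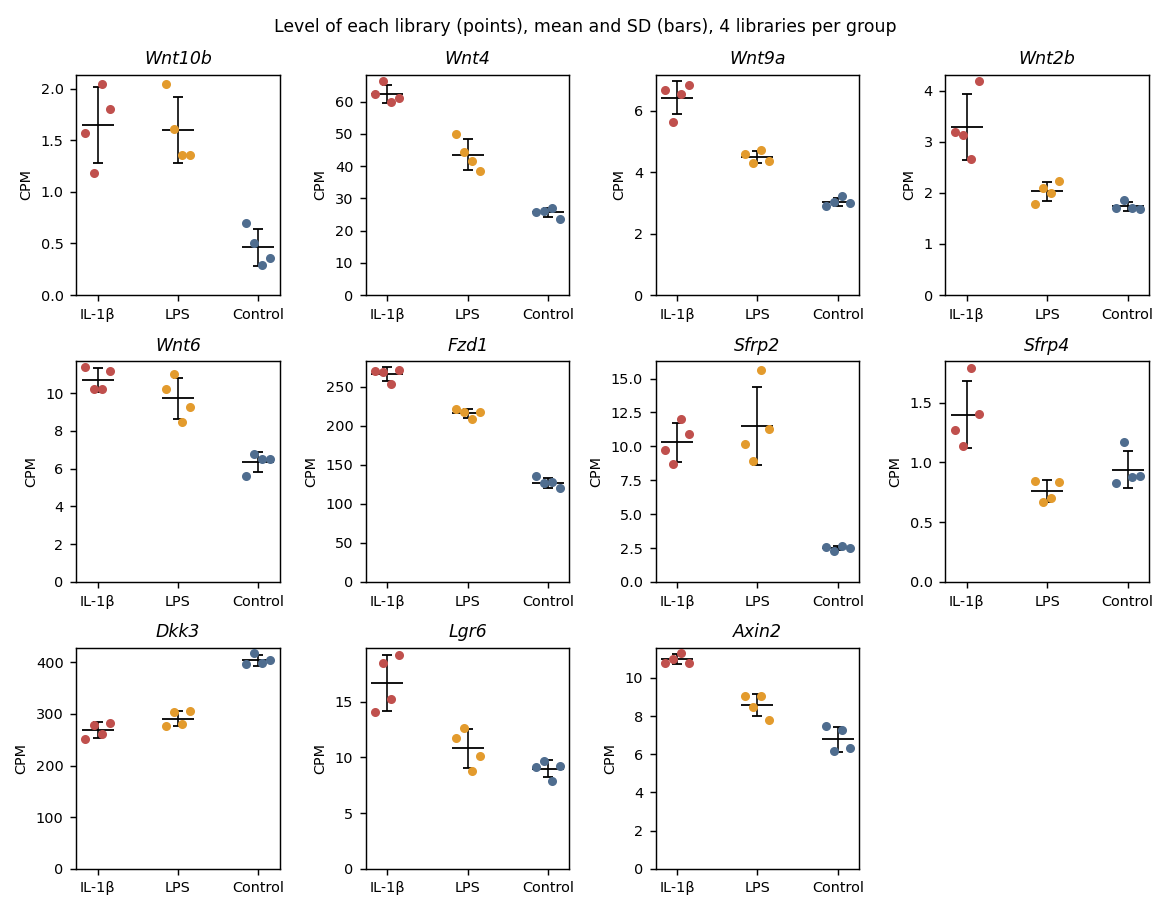
Level in CPM (y axis, from 0) of the 11 Wnt genes given in full, in each of 4 libraries per group (points) with mean and SD (bars), for IL-1β (red), LPS (orange) and control (blue). Wnt4, Wnt9a, Fzd1 and Axin2 show 3 separate levels with IL-1β highest, and Dkk3 lies below its controls, which averaged 404 CPM.

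Among the 10 Frizzled and Lrp genes tested, 3 were higher and 2 were lower with IL-1β, and 2 were higher and 3 were lower with LPS. This is 5 of 10 in each comparison, near the 47.7% of all genes with IL-1β and 42.5% with LPS. Fzd1 had the largest difference of these. It had 270, 269, 253 and 272 CPM with IL-1β, 222, 217, 209 and 217 CPM with LPS, and 135, 127, 128 and 120 CPM in controls. The 3 groups did not overlap. Against control this was a log2 fold change of 1.06 ± 0.03 (adjusted p = 2.73e-20) with IL-1β and 0.76 ± 0.03 (adjusted p = 4.82e-17) with LPS, which is 2.09-fold and 1.70-fold. The 250 bases before its RefSeq start (GRCr8), shown because Fzd1 had the smallest p of all the Wnt genes, held none of the motifs searched, so no letter is in capitals.
Fzd1 chr4:30264824-30265073 (+ strand): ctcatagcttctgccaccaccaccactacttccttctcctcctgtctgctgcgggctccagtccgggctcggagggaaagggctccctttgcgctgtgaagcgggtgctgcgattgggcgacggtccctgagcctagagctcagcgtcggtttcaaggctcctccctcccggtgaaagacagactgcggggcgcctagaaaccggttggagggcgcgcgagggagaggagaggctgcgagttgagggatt

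Fzd6, Fzd2, Fzd4 and Fzd5 also passed in at least 1 comparison with control, by less than 1.5-fold. Fzd6 was higher with IL-1β at 0.37 ± 0.04 (adjusted p = 6.62e-09) and with LPS at 0.28 ± 0.04 (adjusted p = 7.08e-07), averaging 58.9 ± 2.40 CPM with IL-1β, 55.6 ± 1.73 CPM with LPS and 45.6 ± 1.54 CPM in controls. Fzd2 was lower with IL-1β at -0.27 ± 0.05 (adjusted p = 0.000149) and with LPS at -0.38 ± 0.05 (adjusted p = 1.56e-06), averaging 21.8 ± 0.665 CPM with IL-1β, 20.2 ± 0.496 CPM with LPS and 26.2 ± 2.09 CPM in controls. Fzd4, which is also the receptor for the vessel factor norrin, was higher with IL-1β at 0.18 ± 0.04 (adjusted p = 0.000521) and stood at -0.06 ± 0.04 (adjusted p = 0.251) with LPS. Fzd3, Fzd8 and Fzd9 passed in neither comparison. Fzd5 passed with LPS at -0.26 ± 0.11 (adjusted p = 0.0495), and that call was lost without Control replicate 1 or 3 or without any one of the LPS libraries, at adjusted p between 0.0594 and 0.206.

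The co-receptors Lrp5 and Lrp6 differed little from control. Lrp6 averaged 157 ± 0.672 CPM with IL-1β, 164 ± 3.10 CPM with LPS and 165 ± 4.00 CPM in controls, and was lower with IL-1β at -0.08 ± 0.03 (adjusted p = 0.0205). Lrp5 averaged 134 ± 1.98 CPM with IL-1β, 129 ± 3.35 CPM with LPS and 137 ± 1.86 CPM in controls, and was lower with LPS at -0.08 ± 0.03 (adjusted p = 0.0257). The Lrp6 call was lost without Control replicate 1 or 2, at adjusted p of 0.0529 and 0.0843. The Lrp5 call was lost without Control replicate 1 or 4 or LPS replicate 3, at adjusted p between 0.0607 and 0.0982. Both calls were also lost with libraries scaled by their totals alone, at adjusted p of 0.449 for Lrp6 and 0.290 for Lrp5.

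The secreted inhibitors moved in both directions. Of 6 tested, 3 were higher and 1 was lower with IL-1β, and 2 were higher and 2 were lower with LPS. This is 66.7% in each comparison, beside 47.7% of all genes with IL-1β and 42.5% with LPS. Sfrp2, which binds Wnts outside the cell, had the largest fold of all the Wnt genes tested. Its libraries read 9.75, 8.67, 12 and 10.9 CPM with IL-1β, 10.2, 8.92, 15.6 and 11.3 CPM with LPS, and 2.57, 2.30, 2.64 and 2.50 CPM in controls. All treated libraries lay far above all controls and the treatments overlapped. Over control, the log2 fold change was 2.05 ± 0.19 (adjusted p = 9.49e-07) with IL-1β and 2.19 ± 0.19 (adjusted p = 4.61e-07) with LPS, which is 4.14-fold and 4.58-fold. The 250 bases before its RefSeq start (GRCr8) are shown for this size of change and held none of the motifs searched.
Sfrp2 chr2:171387286-171387535 (+ strand): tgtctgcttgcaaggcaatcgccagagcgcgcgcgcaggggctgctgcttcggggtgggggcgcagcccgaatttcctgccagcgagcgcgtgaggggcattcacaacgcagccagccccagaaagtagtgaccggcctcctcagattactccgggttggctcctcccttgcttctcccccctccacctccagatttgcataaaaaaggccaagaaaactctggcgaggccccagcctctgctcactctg

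Dkk3, a divergent Dkk protein, was lower in both treatments. It had 252, 279, 262 and 283 CPM with IL-1β, 276, 303, 281 and 305 CPM with LPS, and 396, 419, 398 and 405 CPM in controls. All treated libraries lay below all controls. Relative to control, it stood at a log2 fold change of -0.59 ± 0.04 (adjusted p = 6.28e-12) with IL-1β and -0.47 ± 0.04 (adjusted p = 3.54e-10) with LPS. Summed over the 8 inhibitors, Dkk3 included, the level was 292 CPM at the lowest, 314 at the median and 323 at the highest with IL-1β, 318, 332 and 345 CPM with LPS, and 428, 433 and 449 CPM in controls. Dkk3 itself averaged 269 CPM with IL-1β, 291 CPM with LPS and 404 CPM in controls. It held most of this sum, which therefore does not give the direction of the other inhibitors.

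Sfrp4 differed between the treatments. It had 1.27, 1.14, 1.79 and 1.41 CPM with IL-1β, 0.841, 0.665, 0.702 and 0.840 CPM with LPS, and 0.825, 1.17, 0.878 and 0.889 CPM in controls. The IL-1β and control libraries overlapped slightly, as did the LPS and control libraries. On the log2 scale, the difference from control was 0.59 ± 0.20 (adjusted p = 0.0158) with IL-1β and -0.30 ± 0.22 (adjusted p = 0.298) with LPS. The IL-1β call was lost without Control replicate 1, at 0.52 (adjusted p = 0.0535), without IL-1β replicate 3, at 0.44 (adjusted p = 0.0905), and with DESeq2, at 0.58 (adjusted p = 0.0527).

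Dkk2 was higher with IL-1β at 0.45 ± 0.12 (adjusted p = 0.00228) and with LPS at 0.36 ± 0.12 (adjusted p = 0.0131), averaging 4.58 ± 0.609 CPM with IL-1β, 4.30 ± 0.454 CPM with LPS and 3.33 ± 0.262 CPM in controls. The LPS call was lost without LPS replicate 1, at 0.30 (adjusted p = 0.0559). Sfrp1 averaged 14 ± 0.968 CPM with IL-1β, 12.1 ± 1.07 CPM with LPS and 13.9 ± 1.40 CPM in controls. It stood at -0.01 ± 0.08 (adjusted p = 0.962) with IL-1β and was lower with LPS at -0.22 ± 0.08 (adjusted p = 0.0207). This call of Sfrp1 was lost without Control replicate 1 or LPS replicate 4, at adjusted p of 0.108 and 0.0828. Dkk4 passed in neither comparison with the main scaling, at 0.12 ± 0.07 (adjusted p = 0.140) with IL-1β and 0.15 ± 0.07 (adjusted p = 0.0744) with LPS. It passed in both with library totals alone, at 0.17 (adjusted p = 0.0368) with IL-1β and 0.19 (adjusted p = 0.0243) with LPS.

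Of the 5 R-spondin and Lgr genes tested, 1 was higher and 1 was lower with IL-1β, and 1 was lower with LPS. These are 40.0% with IL-1β, beside 47.7% of all genes, and 20.0% with LPS, beside 42.5%. Lgr6, a receptor for R-spondins, had 14.1, 18.5, 15.2 and 19.2 CPM with IL-1β, 11.7, 12.6, 8.77 and 10.1 CPM with LPS, and 9.17, 9.68, 7.86 and 9.25 CPM in controls. The IL-1β libraries lay above all the others, and LPS and control libraries overlapped. Against control this was a log2 fold change of 0.88 ± 0.12 (adjusted p = 1.63e-05) with IL-1β and 0.26 ± 0.13 (adjusted p = 0.111) with LPS. The LPS difference of Lgr6 passed without LPS replicate 3, at 0.34 (adjusted p = 0.0197), without the low-count filter (adjusted p = 0.00421) and in a fit of the 8 LPS and control libraries alone (adjusted p = 0.0490).

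Rspo2, a secreted R-spondin, averaged 4.02 ± 0.562 CPM with IL-1β, 4.32 ± 1.20 CPM with LPS and 5.36 ± 0.327 CPM in controls. It was lower with IL-1β at -0.41 ± 0.15 (adjusted p = 0.0302) and stood at -0.31 ± 0.15 (adjusted p = 0.0992) with LPS. The IL-1β call was lost without Control replicate 1, 2 or 3 or IL-1β replicate 2 or 4, at adjusted p between 0.0527 and 0.0878, and the LPS difference passed without LPS replicate 2, at -0.46 (adjusted p = 0.00767). Rspo1 and Rspo4 passed in neither comparison. Lgr4 averaged 135 ± 3.11 CPM with IL-1β, 127 ± 4.37 CPM with LPS and 134 ± 1.61 CPM in controls, and was lower with LPS at -0.07 ± 0.03 (adjusted p = 0.0475). That call was lost without Control replicate 1, 2 or 4 or LPS replicate 1 or 2, at adjusted p between 0.0787 and 0.151.

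Axin2 encodes a scaffold of the complex that destroys β-catenin and is itself a common target of β-catenin, which makes it a widely used readout of the pathway. It had 10.8, 11, 11.3 and 10.8 CPM with IL-1β, 9.03, 8.47, 9.04 and 7.80 CPM with LPS, and 7.46, 6.17, 7.27 and 6.32 CPM in controls. The 3 groups did not overlap. Over control, the log2 fold change was 0.69 ± 0.08 (adjusted p = 3.17e-08) with IL-1β and 0.34 ± 0.08 (adjusted p = 0.00135) with LPS, which is 1.61-fold and 1.26-fold. The TCF/LEF core CTTTGA was in 3 of the 26 Wnt gene windows (Axin2, Dkk1 and Fzd7), beside 13.8% of all windows. In Axin2 it stood 232 and 132 bases before the start that RefSeq gives in its window, which is not the 5′ end of the annotated gene. Both sites are shown (GRCr8), with the core in capitals, since Axin2 was the one gene of the 8 with a window given in full that held it.
Axin2 site 1 chr10:94398541-94398570 (+ strand): ctcagatttcgcCTTTGAaaaagctgtgtc
Axin2 site 2 chr10:94398641-94398670 (+ strand): tttactttcttgCTTTGAtgttgggtagat

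The filter on low counts left 9 genes untested, with between 0 and 14 counts in every library. They were the ligands Wnt3, Wnt7b and Wnt9b, the receptors Fzd7 and Fzd10, the inhibitors Dkk1 and Sfrp5, and Rspo3 and Lgr5. Dkk1, a blocker of Lrp5 and Lrp6, averaged 0.154 ± 0.107 CPM with IL-1β, 0.118 ± 0.0535 CPM with LPS and 0.152 ± 0.113 CPM in controls. Lgr5, a marker of many stem cells, averaged 0.238 ± 0.126 CPM with IL-1β, 0.204 ± 0.192 CPM with LPS and 0.106 ± 0.0341 CPM in controls. No test was made on these genes.

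Set directly against IL-1β, LPS left several of the Wnt genes lower. Of the 33 genes, 2 were higher and 11 were lower with LPS than with IL-1β, or 39.4%, beside 21.9% of all genes tested (11.3% higher, 10.6% lower). Their median log2 fold change was -0.15, beside 0.00 for all genes. Of the 11 ligands tested, 1 was higher and 4 were lower (45.5%). Of the 10 Frizzled and Lrp genes, 2 were lower and 0 higher (20.0%), near the share of all genes. The libraries of the 2 treatments did not overlap in 2 genes that were higher and 12 that were lower with LPS (42.4%, beside 21.6% of all genes). Wnt16 reached the filter level in 4 IL-1β and 2 LPS libraries, and Rspo4 in 3 and 1. The median and the share without overlap include both genes, so they are not support for a fall of the Wnt genes as a group. Wnt4 was lower with LPS at -0.52 ± 0.06 (adjusted p = 8.34e-06) and Wnt9a at -0.52 ± 0.09 (adjusted p = 0.000173). Differences of at least 1.5-fold were found in 3 of the 33 genes, beside 2.75% of all genes. They were Wnt2b, Lgr6 and Sfrp4. Wnt2b was lower at -0.69 ± 0.14 (adjusted p = 0.000790), Lgr6 at -0.62 ± 0.12 (adjusted p = 0.00129) and Sfrp4 at -0.88 ± 0.21 (adjusted p = 0.00235). In Wnt4, Wnt9a, Wnt2b, Lgr6 and Sfrp4 every LPS library lay below every IL-1β library.

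Fzd1 and Axin2 were also lower with LPS than with IL-1β, without overlap, at -0.30 ± 0.03 (adjusted p = 1.05e-07) and -0.35 ± 0.08 (adjusted p = 0.00125). Fzd4 was lower at -0.24 ± 0.04 (adjusted p = 7.22e-05). Wnt5a was the ligand that was higher with LPS, at 0.18 ± 0.05 (adjusted p = 0.00451), and its LPS libraries, between 31.1 and 33.8 CPM, lay above its IL-1β libraries, between 27.6 and 28.7 CPM. Sfrp2 and Wnt10b, the genes with the largest folds over control in both treatments, stood at 0.15 ± 0.15 (adjusted p = 0.555) and -0.05 ± 0.20 (adjusted p = 0.887) between the treatments. Cell type markers also differed between the treatments. With LPS against IL-1β, 12 of 12 endothelial, 9 of 12 macrophage, 6 of 10 theca-interstitial and 3 of 10 granulosa markers were lower, and 1 macrophage marker was higher. Of 12 smooth muscle and pericyte markers, 3 were higher and 3 lower, which became 5 and 6 with the replicate block. Of 10 surface epithelium markers 1 was lower, and of 8 oocyte markers 0 were called. Among all genes 10.6% were lower and 11.3% higher. The 12 endothelial markers became 7 without IL-1β replicate 2 or 4 or LPS replicate 4. The part of these cells in the differences was not tested. The doses were not matched in any stated way, so these differences belong to the treatments as given.

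The other calls between the treatments were small and depended on single libraries. Of the 2 higher genes, 1 remained without IL-1β replicate 1 or 3 or LPS replicate 2 or 4. Dkk3 was higher with LPS at 0.12 ± 0.04 (adjusted p = 0.0293), and this was lost without IL-1β replicate 1 or 3 or LPS replicate 2 or 4, at adjusted p between 0.0867 and 0.111. Wnt11 was lower with LPS at -0.25 ± 0.09 (adjusted p = 0.0464), and this was lost without any library but LPS replicate 1, at adjusted p between 0.0711 and 0.112. Sfrp1 was lower at -0.21 ± 0.08 (adjusted p = 0.0448), and this was lost without IL-1β replicate 2 or 3 or LPS replicate 2, 3 or 4, at adjusted p between 0.0645 and 0.153. Lgr4 was lower at -0.09 ± 0.03 (adjusted p = 0.0319), and this was lost without IL-1β replicate 1, 3 or 4 or LPS replicate 1 or 2, at adjusted p between 0.0512 and 0.108.

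**Figure D3:**
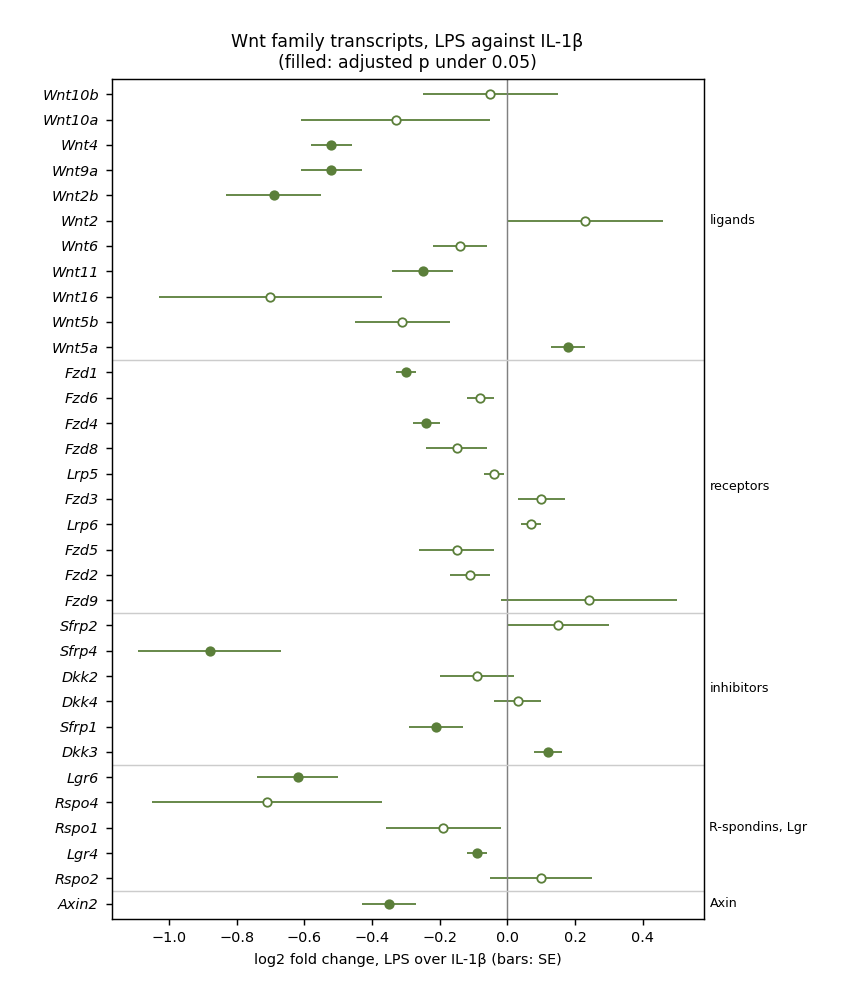
Log2 fold change of LPS over IL-1β (x axis, bars show SE) of the 33 Wnt genes tested, grouped by role, with 4 libraries per group; filled points passed an adjusted p under 0.05. Most filled points lie left of 0, with Sfrp4 at -0.88 and Wnt2b at -0.69, and Wnt5a at 0.18 and Dkk3 at 0.12 lie to the right.

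Other genes of the pathway were taken from 3 lists. Of 33 core genes tested (34 listed), 11 were higher and 8 were lower with IL-1β, with a median log2 fold change of 0.04, and 9 were higher and 7 were lower with LPS, with a median of 0.03. These are 57.6% with IL-1β, beside 47.7% of all genes, and 48.5% with LPS, beside 42.5%, both near the background. The 33 Wnt genes stood at 60.6% and 54.5%, not far above this list. The β-catenin partner Tcf7 was higher with IL-1β at 0.77 ± 0.08 (adjusted p = 2.74e-09) and with LPS at 0.76 ± 0.08 (adjusted p = 3.7e-09). Its relative Lef1 was higher with IL-1β at 0.58 ± 0.14 (adjusted p = 0.002), while Tcf7l1, which often acts as a repressor, was lower with IL-1β at -0.51 ± 0.04 (adjusted p = 2.64e-11) and with LPS at -0.44 ± 0.04 (adjusted p = 3.93e-10). The surface proteoglycan Gpc3 was lower with IL-1β at -0.78 ± 0.08 (adjusted p = 1.48e-08) and with LPS at -0.65 ± 0.08 (adjusted p = 2.48e-07). The planar polarity gene Prickle1 was higher with IL-1β at 0.57 ± 0.04 (adjusted p = 3.61e-13) and with LPS at 0.23 ± 0.04 (adjusted p = 1.23e-05). The corepressor Tle3 was higher with IL-1β at 0.52 ± 0.05 (adjusted p = 2.59e-10) and with LPS at 0.55 ± 0.05 (adjusted p = 7.32e-11). The polarity gene Celsr1 was higher with IL-1β at 0.51 ± 0.11 (adjusted p = 0.000431) and with LPS at 0.51 ± 0.11 (adjusted p = 0.000434). Leaving out Control replicate 1 or 2 or IL-1β replicate 3 brought the 8 lower genes with IL-1β to 5, and scaling by library totals alone gave 19 higher and 4 lower. With LPS against IL-1β, 1 core gene was higher and 4 were lower (15.2%, beside 21.9% of all genes). The 4 became 2 without IL-1β replicate 2 or LPS replicate 3. The higher one, Tle1 at 0.18 ± 0.07 (adjusted p = 0.0495), was not called with DESeq2 (adjusted p = 0.0666).

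Among 14 further inhibitors of Wnt signalling tested (18 listed), 5 were higher and 4 were lower with IL-1β, and 2 were higher and 5 were lower with LPS. These are 64.3% of the list with IL-1β, beside 47.7% of all genes, and 7 of 14 genes with LPS, beside 42.5%. Igfbp4, a binding protein of insulin-like growth factors that also binds Lrp6, averaged 475 ± 30.6 CPM with IL-1β, 292 ± 39.1 CPM with LPS and 98.1 ± 8.24 CPM in controls, and was higher at 2.27 ± 0.11 (adjusted p = 3.22e-08) with IL-1β and 1.57 ± 0.11 (adjusted p = 7.93e-07) with LPS. The membrane inhibitor Apcdd1 averaged 25.0 ± 1.91 CPM with IL-1β, 29.1 ± 0.787 CPM with LPS and 63.6 ± 3.78 CPM in controls, and was lower at -1.35 ± 0.05 (adjusted p = 1.64e-18) with IL-1β and -1.13 ± 0.05 (adjusted p = 4.89e-17) with LPS. Nkd2 and Dact3, which act on Dishevelled inside the cell, were also lower, Nkd2 at -0.95 ± 0.08 with IL-1β and -0.90 ± 0.08 with LPS and Dact3 at -0.98 ± 0.08 with IL-1β and -1.03 ± 0.08 with LPS. Sostdc1 was higher with IL-1β at 0.99 ± 0.29 (adjusted p = 0.0181). Leaving out Control replicate 1 ended that call, at 0.86 (adjusted p = 0.0542). Without that library the 5 higher inhibitors with IL-1β became 3. With LPS against IL-1β, 1 inhibitor was higher and 2 were lower (21.4%, beside 21.9% of all genes), and Igfbp4 was lower at -0.70 ± 0.10 (adjusted p = 0.0008).

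The third list held genes that β-catenin activity is known to raise in some tissues, Axin2 and Dkk2 among them. Whether β-catenin raises them in these cells was not tested. Of 16 tested (20 listed), 8 were higher and 2 were lower with IL-1β, with a median log2 fold change of 0.32, and 7 were higher and 4 were lower with LPS, with a median of 0.19. Among all genes 24.7% were higher and 23.0% lower with IL-1β, and 22.5% higher and 20.0% lower with LPS. Sox9, a transcription factor best known from testis and cartilage, was higher with IL-1β at 1.03 ± 0.14 (adjusted p = 8.19e-07) and with LPS at 0.82 ± 0.14 (adjusted p = 3.12e-05). Wisp1, a matricellular protein, was lower at -0.72 ± 0.16 (adjusted p = 0.000541) with IL-1β and -1.0 ± 0.16 (adjusted p = 1.2e-05) with LPS. With LPS against IL-1β, 2 were higher and 3 were lower (31.2%, beside 21.9% of all genes), and the 3 became 5 without LPS replicate 2. The adhesion receptor Cd44 was higher with LPS than with IL-1β at 0.63 ± 0.07 (adjusted p = 7.53e-05), and Nkd1 was lower at -0.29 ± 0.04 (adjusted p = 2.79e-05). Apcdd1, whose values stand above, is on this list too.

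**Figure D4:**
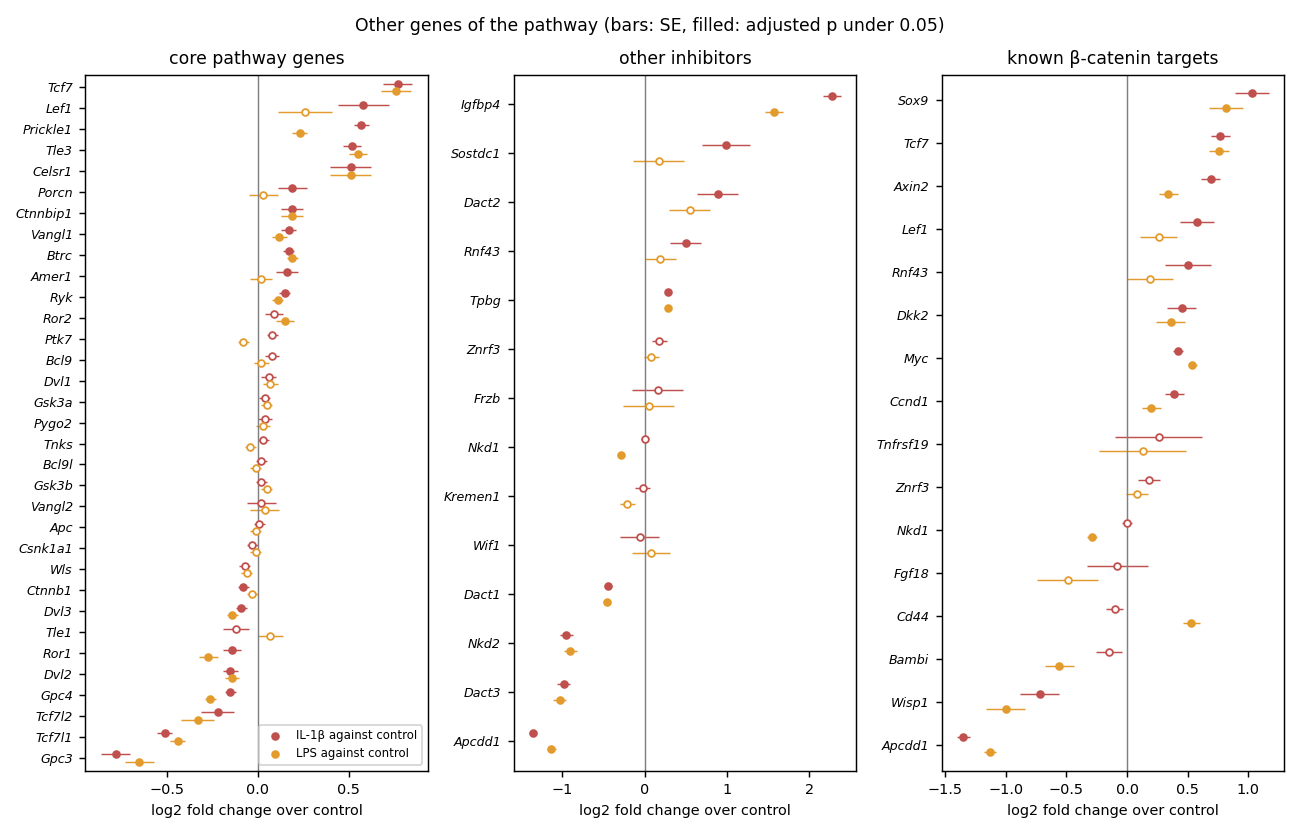
Log2 fold change over control (x axis, bars show SE) of other Wnt pathway genes in 3 lists (core genes, other inhibitors and known β-catenin targets) for IL-1β (red) and LPS (orange); filled points passed an adjusted p under 0.05. Igfbp4 at 2.27 and 1.57 and Apcdd1 at -1.35 and -1.13 lie farthest from 0, and the core genes lie between -0.78 and 0.77.

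Markers of several ovarian cell types moved with the treatments as well. The counts for each cell type stand beside 24.7% of all genes higher and 23.0% lower with IL-1β. With LPS the shares of all genes were 22.5% higher and 20.0% lower. Endothelial markers summed to 420 to 472 CPM with IL-1β, 291 to 392 CPM with LPS and 196 to 227 CPM in controls, and 12 of 12 were higher with IL-1β and 11 of 12 with LPS. This is the order of groups seen for Wnt4, Wnt9a, Fzd1 and Axin2, and the theca-interstitial and granulosa sums below had the same order. Theca-interstitial markers summed to 720 to 769 CPM with IL-1β, 572 to 621 CPM with LPS and 350 to 381 CPM in controls. Of 10, 7 were higher and 1 was lower with IL-1β, and 5 were higher and 2 were lower with LPS, the 2 becoming 1 without Control replicate 1 or 2 or LPS replicate 1 or 3. Granulosa markers summed to 1690 to 2009 CPM with IL-1β, 1445 to 1662 CPM with LPS and 1209 to 1257 CPM in controls. Of 10, 6 were higher and 2 were lower with IL-1β, and 4 were higher and 1 was lower with LPS. The 4 became 2 without LPS replicate 1, and the 1 became 2 without LPS replicate 3. Gja1 and Inha, at 996 and 536 CPM with IL-1β, held most of the granulosa sum. Star, at 405 CPM with IL-1β, held much of the theca-interstitial sum. These 2 sums therefore do not give the order of the other markers.

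Smooth muscle and pericyte markers summed to 2194 to 2418 CPM with IL-1β, 2445 to 2656 CPM with LPS and 5520 to 5950 CPM in controls, and 9 of 12 were lower and 2 higher with IL-1β, and 10 were lower with LPS. Dkk3 was also below its controls in both treatments. With LPS against IL-1β, 3 of the 12 smooth muscle and pericyte markers were higher and 3 lower. Their median log2 fold change was 0.01, so the order of the 2 treatments is that of the sum alone. Macrophage markers summed to 63.8 to 69.9 CPM with IL-1β, 57.4 to 64.6 CPM with LPS and 117 to 124 CPM in controls, and 8 of 12 were lower with IL-1β and 9 with LPS, with 1 higher in each. Surface epithelium markers summed to 68.1 to 75.0 CPM with IL-1β, 47.9 to 62.9 CPM with LPS and 51.7 to 53.0 CPM in controls, with 4 of 10 higher and 3 lower in each comparison. Oocyte markers summed to 98.0 to 136 CPM with IL-1β, 81.9 to 168 CPM with LPS and 162 to 181 CPM in controls. Of these 8 markers, 3 were lower with IL-1β, which became 1 without Control replicate 2, 3 or 4 or IL-1β replicate 3 or 4 and with library totals alone, 6 with the replicate block and 7 in the fit of the 8 libraries. With LPS, 2 were lower, which became 0 without Control replicate 1 or 2 or LPS replicate 3, 1 without Control replicate 3 or 4 or LPS replicate 4, 6 with the replicate block and 7 without LPS replicate 2. No marker on these lists was at 0 in any group. The part of these cell types in the differences of the Wnt genes was not tested.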

How the data were processed

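RNA of 12 samples, 4 per group, was prepared with a stranded poly(A) kit, per the labels' protocols. Read counts per gene symbol were deposited without normalization by the authors. TopHat2 2.1.1, SAMtools and DESeq2 with the build Rnor_6.0 are named in the submitters' processing notes. The counting program, annotation, strand setting and handling of shared reads are not given in the sources used here. Of 30045 symbols, 1425 had no count.

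Genes were kept with filterByExpr (17330 genes) and scaled by TMM (factors 0.976 to 1.02). A quasi-likelihood model with group as its term was fitted to all 12 libraries in edgeR 4.0.16 (R 4.3.3, robust), with two-sided F tests, Benjamini-Hochberg adjustment over all genes and calls at an adjusted p under 0.05. The SE of a log2 fold change is its size over the root of the F statistic. Levels in CPM use TMM-scaled totals. Total counts per library, 20873934 to 32090924, set the precision of low genes. The code was tested on simulated data. Levels of different genes are not comparable, since no transcript lengths were used.

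The Wnt genes and the gene lists were chosen with earlier results of these data known. Values per library are given for the 11 genes called in at least 1 comparison with a change of at least 1.5-fold and a mean of at least 1 CPM in some group. Examples from other lists were drawn from the 4 called genes with the largest changes and at least 1 CPM. Tcf7l1, Prickle1 (LPS) and Nkd2, Tle3, Celsr1 and Gja1 (IL-1β) were also named, outside this rule, after their values were seen. Alternatives were DESeq2 size factors, library totals alone, no low-count filter, DESeq2 1.42.0, a fit of the 8 libraries compared, a replicate block and each library left out in turn. Applying them to the lists, and counting only genes at the filter level in all controls, were added after seeing the data. Promoter windows are RefSeq's for GRCr8, which is not the build of the counts.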

Additional observations from a re-analysis of the deposited data

Results flagged for a closer look

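In groups of 4, a library was singled out when its gap to the nearest of the others relative to the range of its group exceeded Dixon's critical value. Of 156 groups of Wnt genes and pathway genes examined, 7 met this, and chance alone flags about 1 in 20. IL-1β replicate 3 was the lowest of its group for 3 receptors. Fzd1 read 253 CPM there and 269 to 272 CPM in the other IL-1β libraries, Fzd3 read 12.3 CPM against 14 to 14.3 CPM, and Fzd4 read 43.1 CPM against 46.2 to 46.7 CPM. Fzd3 read 15.2 CPM in Control replicate 3, against 13.4 to 13.7 CPM in the other controls. Apcdd1 read 22.2 CPM in IL-1β replicate 1, against 25.9 to 26.1 CPM in the other IL-1β libraries. Gpc4 read 145 CPM in LPS replicate 3, against 154 to 156 CPM in the other LPS libraries. Tcf7 read 9.33 CPM in Control replicate 2, against 7.55 to 7.66 CPM in the other controls.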

How the results depend on the processing

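No called difference of a Wnt gene changed sign under any alternative. Of the values recomputed for single Wnt genes, 1294 kept their side of the threshold, 73 lost and 15 gained a call. By setting, DESeq2 size factors changed no call and DESeq2 lost 5. Library totals alone lost 6 and gained 3, no low-count filter lost 5 and gained 2, and the fit of the 8 libraries compared lost 4 and gained 1. Leaving out 1 library at a time lost 52 and gained 7. Counts that moved by over 1.5 times were the lower genes with IL-1β against control, which were 4 and became 2 with library totals alone and 2 to 5 with 1 library left out, and the lower genes with LPS against control, which were 6 and became 2 with library totals alone and 3 to 6 with 1 library left out. The higher genes with LPS against IL-1β were 2 and became 1 in the fit of 8 libraries and 1 to 2 with 1 library left out. The cause of these changes was not tested, other than that leaving out a library leaves fewer samples. Correlations of deviations between libraries with the same replicate number ran from -0.033 to 0.117, and those between different numbers from -0.0749 to 0.0557. Between IL-1β and LPS libraries of the same number they were all positive, at 0.00742, 0.0945, 0.0524 and 0.117. Most of those between different numbers of these 2 groups were negative. The highest of all was between IL-1β replicate 4 and LPS replicate 4. Whether the numbers pair samples is not given in the labels, so the block was kept as an alternative. With the replicate number as a block, 96 values of single genes kept their side, and counts of lower genes with IL-1β stayed at 4. With the block, Lgr6 at 0.26 (adjusted p = 0.0142) and Rspo2 at -0.32 (adjusted p = 0.0341) passed with LPS against control, and Fzd5 did not (adjusted p = 0.0516). Genes under about 1 CPM, such as Wnt10a, Wnt2 and Wnt16, are limited by depth.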
